A study of Mus musculus with 8 samples.

Results

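The carboxylesterase genes Ces1c, Ces1d, Ces1e, Ces1f, Ces1g, Ces2a, Ces2c, Ces2e, Ces3a and Ces3b were followed in mouse liver. These 10 genes were chosen by name, out of 55401 genes in the count table, and all 10 passed the filter on low counts. The livers came from NOD scid gamma (NSG) mice, an immunodeficient strain without mature lymphocytes, and every mouse carried a human colorectal cancer line as a subcutaneous xenograft. The line was Colo201, described by the series as FGF19-Hi, in 4 libraries and HCT116, described as FGF19-Lo, in the other 4. FGF19 is a gut hormone that acts on hepatocytes through FGFR4 and represses bile acid synthesis. The series examines how the liver transcriptome of the host differs between the lines. Each line had 2 libraries labelled male (Colo201 2L and 2R, HCT116 1L and 1R) and 2 labelled female (Colo201 4L and 4R, HCT116 3L and 3R). Age is not given in the labels, every library came from a tumour-bearing mouse, and the level of FGF19 differs only by line, so FGF19 and other properties of the tumours cannot be told apart.

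The libraries held between 61347603 and 65457482 estimated counts, and 19370 to 20272 genes had a count above 0. The male label went with 253 to 366 CPM (counts scaled by library size) of Xist, the X-inactivation RNA, and the female label with 0.276 to 0.805 CPM. For 4 Y-linked genes the order was the reverse, with no more than 0.0742 CPM under the male label and 9.06 to 63.5 CPM under the female label. The sex labels were thus opposite to these genes in all 8 libraries, and sex is given below only as labelled. Nothing in the labels says whether L and R of a title number are separate animals, so the p-values measure the spread between libraries, which may be technical. Each combination of line and label holds a single title number, so contrasts within a label rest on the spread between L and R. Summed hepatocyte markers (Alb, Ttr, Trf, Apoa1, Apob, Serpina1c and Cps1) made up 118878 to 185521 CPM, as the tissue label would have it. In whole liver, fewer cells of a type and less RNA per cell cannot be told apart.

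Carboxylesterases are serine hydrolases that sit mostly in the lumen of the endoplasmic reticulum. They cleave esters, thioesters and amides, and in liver they break down drugs and prodrugs, pesticides and stored lipids. In the mouse the family grew by tandem duplication, so that single human genes such as CES1 and CES2 correspond to several mouse genes. Ces1d, also called triacylglycerol hydrolase, mobilises stored triacylglycerol for the assembly of very low density lipoprotein. Ces1g is a lipid hydrolase whose loss raises liver lipid in mice. Ces1c encodes the carboxylesterase that mouse liver secretes into plasma, and Ces1e encodes egasyn, which holds beta-glucuronidase in the endoplasmic reticulum. Ces1f also acts on triacylglycerol, Ces2a and Ces2c hydrolyse acylglycerols, and Ces3a and Ces3b form a closely related pair of liver esterases.

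All members lie on chromosome 8 in GRCm38. The Ces1 genes follow each other on the minus strand, with Ces1d at chr8:93166068-93197838, Ces1e at chr8:93201218-93229619 and Ces1g at chr8:93302369-93337308. The Ces2 and Ces3 genes follow on the plus strand, with Ces2c at chr8:104847068-104854483, Ces2e at chr8:104926260-104934672 and Ces3a at chr8:105048601-105058413. The coding sequences show how close the copies are, which bears on how reads are divided among them. The stretch around the catalytic serine, the residue that attacks the ester bond, is printed for the 10 genes from the GENCODE vM21 annotation of GRCm38. Capitals mark the 15 bases aligned with the motif that surrounds the serine codon. Ces1c, Ces2a, Ces3a and Ces3b did not match the motif itself at these bases.
Ces1c: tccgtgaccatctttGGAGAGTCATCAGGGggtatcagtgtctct
Ces1d: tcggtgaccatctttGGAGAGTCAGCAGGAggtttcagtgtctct
Ces1e: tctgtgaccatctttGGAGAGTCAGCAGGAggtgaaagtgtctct
Ces1f: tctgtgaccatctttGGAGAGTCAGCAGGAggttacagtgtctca
Ces1g: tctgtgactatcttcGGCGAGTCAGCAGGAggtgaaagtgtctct
Ces2a: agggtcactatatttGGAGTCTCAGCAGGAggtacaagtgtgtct
Ces2c: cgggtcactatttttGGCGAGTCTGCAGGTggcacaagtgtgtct
Ces2e: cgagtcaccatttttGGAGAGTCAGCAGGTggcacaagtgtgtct
Ces3a: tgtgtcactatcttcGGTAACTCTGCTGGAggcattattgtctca
Ces3b: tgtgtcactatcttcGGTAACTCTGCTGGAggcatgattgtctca

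Compared with Ces1d over these 45 bases, Ces1c and Ces1e differed at 4 positions, Ces1f at 3 and Ces1g at 7. The Ces2 genes differed at 11 to 13 positions and both Ces3 genes at 15. Over whole coding sequences Ces3a and Ces3b were 95.3% identical, Ces1d and Ces1g 81.6%, Ces1d and Ces1e 80.4%, and Ces2c and Ces2e 84.0%. Stretches of 50 bases found in another annotated gene as well made up 36.1% of those of Ces2c, with 734 of its 811 shared stretches found in the pseudogene Ces2d-ps. They made up 25.6% for Ces3a and 26.2% for Ces3b, all shared within that pair, 17.3% for Ces2a, most of them with the locus Gm7208, and 13% for Ces1c. For Ces1d, Ces1e, Ces1f, Ces1g and Ces2e the share was 0.903 to 3.3%. How the authors' counting assigned such reads is not given, so levels of Ces2c, Ces3a, Ces3b, Ces2a and Ces1c are less certain than the rest.

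The level of the genes, compared per length as the authors' FPKM (fragments scaled by gene length and sequencing depth), spanned more than 2 orders of magnitude. Ces1c was the most abundant in both lines. It was at 867 ± 160 FPKM in hosts of Colo201 and 1065 ± 80.6 FPKM in hosts of HCT116 (SD, n = 4 libraries each here and below). In hosts of HCT116 it was followed by Ces3a at 518 ± 326, Ces1d at 445 ± 117, Ces1f at 207 ± 37.4, Ces2a at 187 ± 11.5, Ces1e at 89.1 ± 15, Ces3b at 76.0 ± 42.0, Ces2e at 74.4 ± 4.93, Ces1g at 33.8 ± 17.8 and Ces2c at 3.79 ± 2.46 FPKM. Neighbours in this order from Ces3a to Ces1d, from Ces1f to Ces2a, and from Ces1e through Ces3b to Ces2e lay within each other's spread. In hosts of Colo201 the order below Ces1c was Ces3a at 483 ± 233, Ces1f at 175 ± 33.3, Ces1d at 166 ± 51.6, Ces2a at 140 ± 28.5, Ces2e at 122 ± 9.26, Ces3b at 50.8 ± 27.2, Ces1e at 32.0 ± 4.76, Ces2c at 9.13 ± 3.08 and Ces1g at 7.82 ± 4.13 FPKM. There the levels from Ces1f through Ces1d to Ces2a, and from Ces2a to Ces2e, lay within each other's spread, as did Ces3b with Ces1e and Ces2c with Ces1g. Ces2e stood above Ces1e in every library from hosts of Colo201 and Ces1d stood above Ces1f in every library from hosts of HCT116.

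Summed over the 10 genes, the level was 2033, 1955, 2138 and 2088 FPKM in the hosts of Colo201 (libraries 2L, 2R, 4L, 4R) and 2506, 2471, 2929 and 2891 FPKM in the hosts of HCT116 (1L, 1R, 3L, 3R). Every library from hosts of Colo201 was below every library from hosts of HCT116, with means of 2054 ± 78.2 and 2699 ± 244 FPKM. The 10 genes took 0.514 to 0.606% of the scaled counts in hosts of Colo201 and 0.644 to 0.817% in hosts of HCT116. Within the summed FPKM, Ces1d held 8.16 ± 2.86% in hosts of Colo201 and 16.9 ± 5.77% in hosts of HCT116, while Ces2e held 5.97 ± 0.545% and 2.76 ± 0.183%. The 2 Ces3 genes held 13.6% on average in libraries labelled male and 33.3% in those labelled female.

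**Figure D1:**
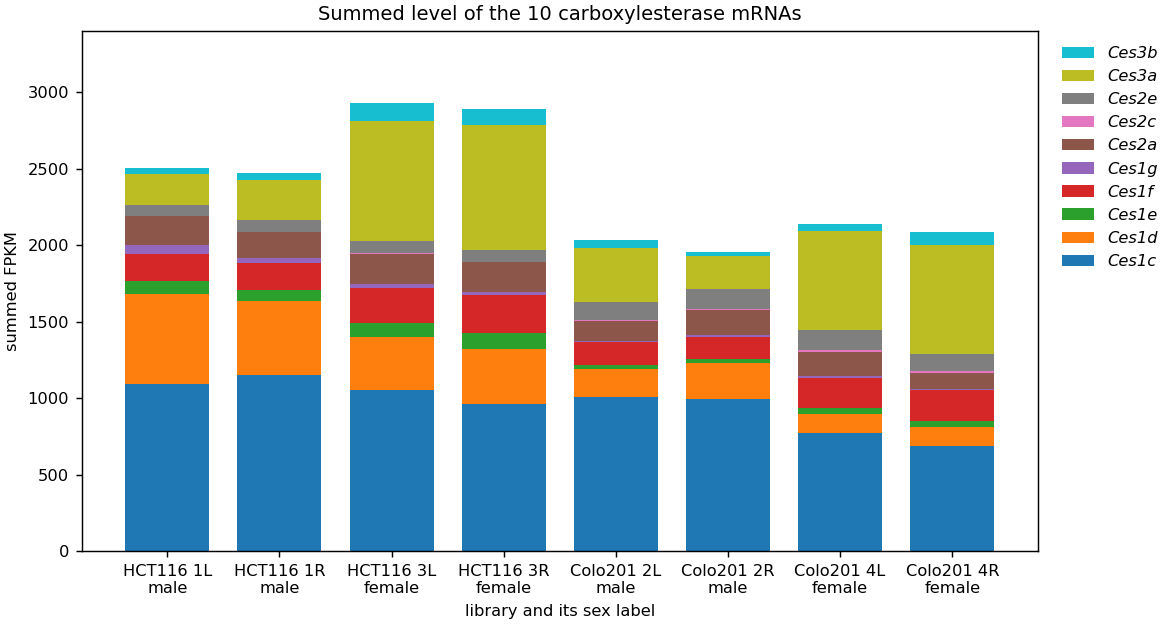
Summed FPKM of the 10 carboxylesterase genes in each of the 8 libraries, stacked by gene, with line and sex label under each bar. Totals run from 1955 to 2138 FPKM in hosts of Colo201 and from 2471 to 2929 in hosts of HCT116, and the Ces3a segment is tallest in the libraries labelled female.

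The main comparison set hosts of Colo201 against hosts of HCT116. Ces1d, Ces1e and Ces1g were lower in hosts of Colo201, by 2.64-, 2.71- and 4-fold, and Ces2c and Ces2e were higher, by 2.85- and 1.69-fold. Ces1c, Ces1f, Ces2a, Ces3a and Ces3b did not pass the test. A gene was called when the adjusted p of edgeR's quasi-likelihood test, with sex label as a covariate and Benjamini-Hochberg adjustment over 17669 genes, was under 0.05. Over all tested genes 2.48% were called higher and 2.3% lower, 4.78% in either direction, against 2 and 3 of the 10 members. The median log2 fold change of the members was -0.33, beside 0.00 over all tested genes. The 4 libraries of one line lay entirely to one side of the other's for 5 members, which were Ces1d, Ces1e, Ces1g and Ces2a on the lower side and Ces2e on the higher; this held for 12.3% of tested genes. All 5 calls ended when L and R of a title number were summed into 1 library, with adjusted p from 0.0838 (Ces1d and Ces1e) to 0.139 (Ces2c). Leaving out HCT116 3L, 1R or 1L took the calls over all genes from 439 higher and 406 lower to 86 and 89, 98 and 100, and 107 and 106, and those of the members to 2 higher and 2 lower each time.

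**Figure D2:**
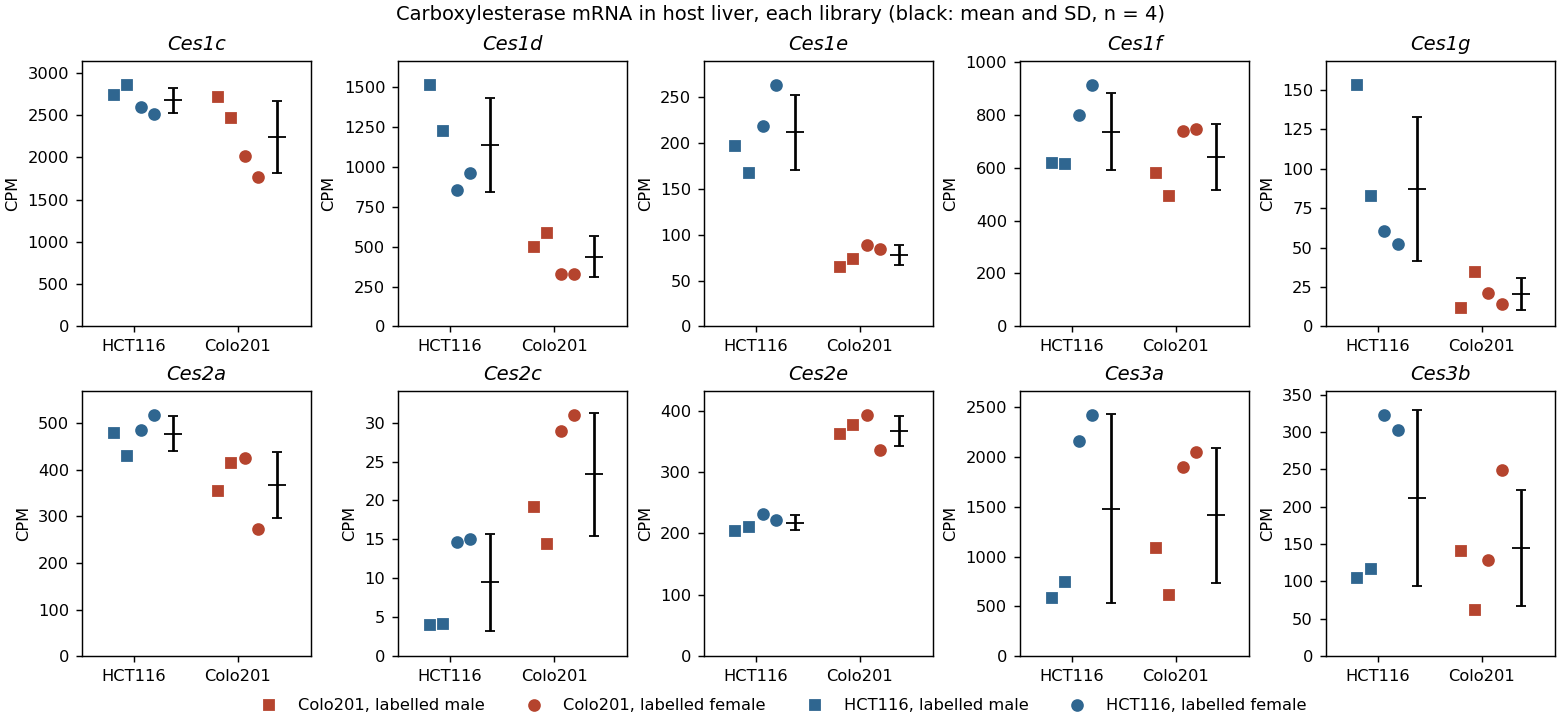
CPM of each member in each library, by line, with squares for libraries labelled male and circles for those labelled female; black marks give the mean and SD of the 4 libraries. Ces1d, Ces1e and Ces1g lie lower and Ces2e higher in all 4 libraries from hosts of Colo201, while Ces3a separates by sex label.

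Ces1d, the triacylglycerol hydrolase, was measured at 498, 587, 328 and 330 CPM in the hosts of Colo201 (2L, 2R, 4L, 4R) and at 1512, 1226, 854 and 961 CPM in the hosts of HCT116 (1L, 1R, 3L, 3R). The highest library of Colo201 was below the lowest library of HCT116, and within each line the libraries labelled male were above those labelled female. The means were 436 ± 129 and 1138 ± 294 CPM, a log2 fold change of -1.40 (SE 0.10, 95% interval -1.63 to -1.18, edgeR adjusted p = 0.000845). Within libraries labelled male it was -1.34 (adjusted p = 0.0247) and within those labelled female -1.47 (adjusted p = 0.0122). Ces1d overlaps Gm45909, an unconfirmed annotated transcript on the same strand. Adipocyte markers, tracked because adipose tissue also makes Ces1d, summed to 0 to 0.457 CPM over Adipoq, Plin1, Cfd and Lep, with Lep at 0 in all libraries.

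Ces1e, egasyn, stood at 64.7, 73.3, 89.0 and 83.9 CPM in the hosts of Colo201 and at 197, 167, 219 and 263 CPM in the hosts of HCT116, in the same library order. The lines were far apart, and within each line both libraries labelled male lay below both labelled female, by a smaller margin. From 211 ± 40.3 CPM in hosts of HCT116 the mean was lower at 77.7 ± 10.8 CPM. This was a difference of -1.44 on the log2 scale (SE 0.10, 95% interval -1.66 to -1.22, edgeR adjusted p = 0.00081). The contrast was -1.40 within libraries labelled male (adjusted p = 0.0235) and -1.48 within those labelled female (adjusted p = 0.0122). By label Ces1e was called lower in libraries labelled male by DESeq2 (adjusted p = 0.0243) but not by edgeR (adjusted p = 0.0796). Gusb, the beta-glucuronidase that egasyn retains, did not pass the test, at 32.5 ± 4.57 CPM in hosts of Colo201 and 30.8 ± 1.39 CPM in hosts of HCT116 (log2 fold change 0.08, adjusted p = 0.754).

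Ces1g, the third of the lower genes, was at 11.8, 34.5, 21.5 and 14.2 CPM in the hosts of Colo201 and at 153, 82.8, 60.8 and 52.0 CPM in the hosts of HCT116. No library of Colo201 reached the lowest library of HCT116, but the spread within each line was wide and HCT116 1L was by far the highest. Its log2 fold change of -2.00 (SE 0.36, 95% interval -2.82 to -1.18, edgeR adjusted p = 0.0244) came from means of 20.5 ± 10.2 and 87.0 ± 45.6 CPM. Neither sex label alone gave a call, at -2.34 within male (adjusted p = 0.147) and -1.66 within female (adjusted p = 0.209). Leaving out Colo201 4R, HCT116 1L, 1R or 3L took the adjusted p to 0.0501, 0.0598, 0.0511 and 0.0715, and the fit without a covariate to 0.0598, while the log2 fold change stayed between -2.26 and -1.70 over all alternatives.

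The 2 remaining Ces1 genes were not called between lines. Ces1c, the plasma carboxylesterase, was at 2707, 2469, 2011 and 1767 CPM in the hosts of Colo201 and at 2735, 2851, 2594 and 2509 CPM in the hosts of HCT116. The lines overlapped, and the 2 libraries of Colo201 labelled female were the lowest of all. Its log2 fold change was -0.27 (95% interval -0.48 to -0.07, adjusted p = 0.127), -0.11 within libraries labelled male and -0.43 within those labelled female. Ces1f was at 580, 492, 739 and 745 CPM in the hosts of Colo201 and 618, 612, 800 and 911 CPM in the hosts of HCT116, a log2 fold change of -0.20 (95% interval -0.39 to -0.02, adjusted p = 0.19). The FPKM of Ces1d was 0.614 to 1.65 times that of Ces1f in hosts of Colo201 and 1.46 to 3.39 times in hosts of HCT116, and the ratio was higher in libraries labelled male in both lines.

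Among the Ces2 genes, Ces2e was the most even. It was measured at 362, 376, 393 and 336 CPM in the hosts of Colo201 and at 204, 211, 232 and 221 CPM in the hosts of HCT116. The lines did not overlap and the 4 libraries of a line lay close together. The means of 367 ± 24.2 and 217 ± 12.5 CPM gave a log2 fold change of 0.76 (SE 0.08, 95% interval 0.58 to 0.94, edgeR adjusted p = 0.00456). Within libraries labelled male it was 0.83 (adjusted p = 0.0488) and within those labelled female 0.69 (adjusted p = 0.0601), so that the second missed the threshold.

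Ces2c, a hydrolase of acylglycerols at low level in these livers, was the member with the largest called rise. It was measured at 19.2, 14.4, 28.9 and 31.0 CPM in the hosts of Colo201 and 4.03, 4.16, 14.7 and 15 CPM in the hosts of HCT116. Colo201 2R, labelled male, was below HCT116 3L and 3R, labelled female, so the lines overlapped when pooled but not within either sex label. With the label as a covariate the log2 fold change was 1.51 (SE 0.21, 95% interval 1.03 to 1.99, edgeR adjusted p = 0.0109), and without it 1.30 (adjusted p = 0.211). Within libraries labelled male the means were 16.8 and 4.09 CPM, a 4.09-fold difference (adjusted p = 0.0167), and within those labelled female 29.9 and 14.8 CPM, a 2.02-fold difference (adjusted p = 0.0528). The difference between these contrasts, female minus male, was -1.02 (SE 0.23, edgeR adjusted p = 0.952; unadjusted, from the same edgeR fit, 0.00259) and did not pass. The summed intestinal markers Vil1, Fabp2, Lgals4, Cdx2 and Alpi, from a tissue rich in Ces2 enzymes, were at 52.7 to 77.5 CPM in hosts of Colo201 and 66.7 to 85.9 CPM in hosts of HCT116.

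Ces2a, a hydrolase of acylglycerols, was not called. It was at 354, 415, 426 and 272 CPM in the hosts of Colo201 and 480, 429, 485 and 518 CPM in the hosts of HCT116. Each library of Colo201 was below each library of HCT116, by a narrow margin. The log2 fold change of -0.38 (SE 0.14, 95% interval -0.71 to -0.05) had an edgeR adjusted p of 0.172. The ratio of Ces2e to Ces2a in FPKM was 0.893, 0.791, 0.808 and 1.08 in the hosts of Colo201 and 0.371, 0.429, 0.418 and 0.373 in the hosts of HCT116. The ratios of the lines were apart by more than the range within either.

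Ces3a was at 1086, 614, 1899 and 2053 CPM in the hosts of Colo201 and at 586, 746, 2164 and 2422 CPM in the hosts of HCT116. Ces3b was at 141, 61.6, 129 and 249 CPM and at 104, 116, 323 and 303 CPM. Both spread widely within each line, and Ces3a overlaps Gm45724, an unconfirmed annotated transcript on the opposite strand. The log2 fold change between lines was 0.07 for Ces3a (95% interval -0.37 to 0.51, adjusted p = 0.875) and -0.42 for Ces3b (95% interval -1.08 to 0.23, adjusted p = 0.438), so neither was called and differences inside these intervals could not be resolved. The direction for Ces3a turned with the covariate and with single libraries, as given under the processing alternatives. Ces3a stood 7.53 to 14.3 times above Ces3b in FPKM in hosts of Colo201 and 5.49 to 7.82 times in hosts of HCT116.

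The sex label was compared with line as a covariate. Ces3a, Ces2c and Ces1f were lower in libraries labelled male, by 2.83-, 2.53- and 1.39-fold, and Ces1d was higher, by 1.58-fold. Over all tested genes 1.96% were called higher and 2.06% lower in libraries labelled male, 4.02% in either direction, beside 1 and 3 of the 10 members. The members' median log2 fold change was -0.21, and that of all tested genes -0.00. The libraries of the labels did not overlap for 2 members, Ces1f and Ces3a, and for 9.64% of tested genes. Markers of other cells also moved with the label. The sum of the 6 macrophage markers was 241 to 262 CPM under the male label and 91.6 to 176 CPM under the female label, and that of the 5 endothelial markers 180 to 211 and 111 to 151 CPM, so neither overlapped. Among them Cd68, Stab2 and Pecam1 were called higher in libraries labelled male. The call of Cd68 was lost when any library but HCT116 3L was left out (edgeR adjusted p 0.0651 to 0.114). That of Pecam1 was lost without Colo201 2R or 4R or any library of HCT116 (0.0725 to 0.0937), and that of Stab2 without HCT116 1L (0.0509). All 6 macrophage and all 5 endothelial markers had an unadjusted p under 0.05 in edgeR, as did 3211 of all 17669 tested genes. Their median log2 fold changes were 0.76 and 0.59. Summed hepatocyte markers were at 146545 to 185521 and 118878 to 145075 CPM, with Alb called higher in libraries labelled male. The call of Alb was lost without a covariate (edgeR adjusted p = 0.0618) and in limma on the FPKM (adjusted p = 0.0956 and 0.151). Of the exocrine pancreas markers, Prss1 and Cpa1 were at 0 CPM in all libraries and Amy2b reached at most 0.0891 CPM. Only Cela1 of that list was tested, and it was called lower in libraries labelled male (-0.97, edgeR adjusted p = 0.0292). Leaving out Colo201 2R or 4R or any library of HCT116 ended that call (adjusted p 0.0627 to 0.0941). The part of these in the label differences was not tested. All 4 label calls of members ended when L and R were summed, with adjusted p from 0.0559 (Ces3a) to 0.15 (Ces2c).

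**Figure D3:**
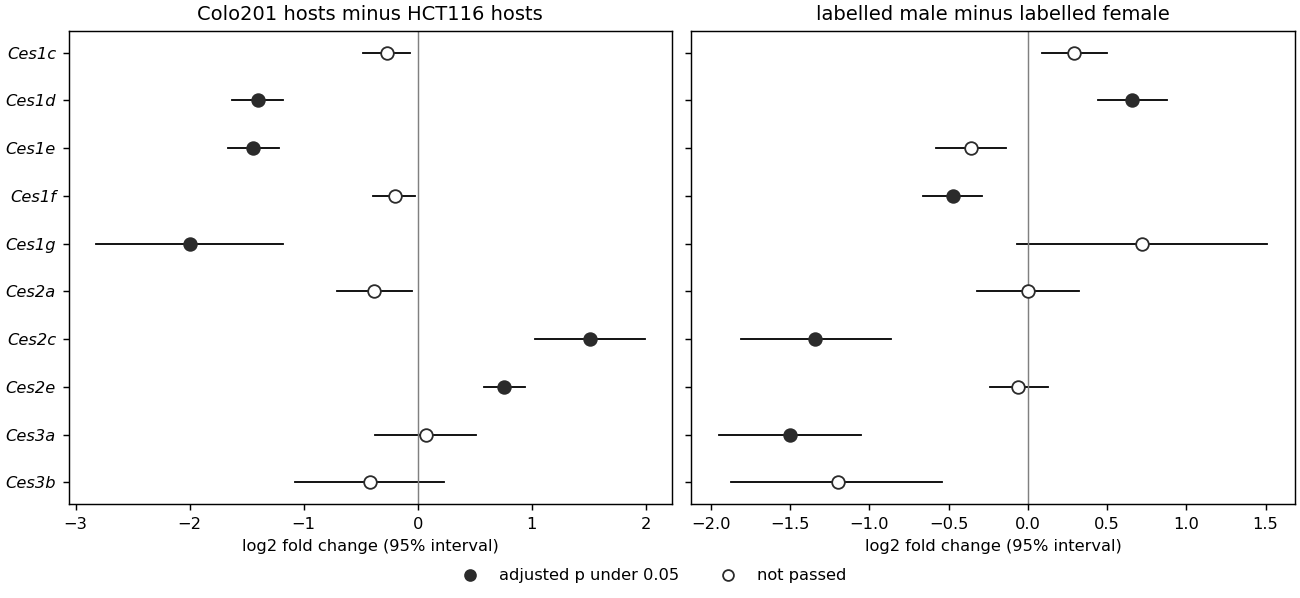
Log2 fold change and 95% interval of each member, Colo201 minus HCT116 on the left and labelled male minus labelled female on the right; filled points have an edgeR adjusted p under 0.05. Ces1d and Ces2c are filled on both sides, Ces1e, Ces1g and Ces2e only between lines, and Ces1f and Ces3a only between labels.

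Ces3a had the widest gap between labels, at 758 ± 230 CPM in libraries labelled male and 2135 ± 220 CPM in those labelled female (n = 4 each; log2 fold change -1.50, SE 0.20, 95% interval -1.95 to -1.05, edgeR adjusted p = 0.00508). Its highest library labelled male, Colo201 2L, was at 1086 CPM and its lowest labelled female, Colo201 4L, at 1899 CPM. Ces3b, whose reads are in part shared with Ces3a, was at 106 ± 33.0 and 251 ± 86.8 CPM, which was not called (log2 fold change -1.20, SE 0.29, adjusted p = 0.0592); it was called without Colo201 2L or 4L, at adjusted p of 0.00796 and 0.0258, with counts divided by 4 (0.0484), in limma voom (0.0384) and in DESeq2 (4.89e-05). Ces2c was at 10.4 ± 7.57 CPM in libraries labelled male and 22.4 ± 8.77 CPM in those labelled female (log2 fold change -1.34, SE 0.21, adjusted p = 0.0112). Within each line the labels were apart, as the values above show.

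Ces1f was at 576 ± 58.4 CPM in libraries labelled male and 799 ± 79.8 CPM in those labelled female (log2 fold change -0.47, SE 0.08, adjusted p = 0.0161). That call was lost without Colo201 2R, HCT116 1L or HCT116 1R, at adjusted p of 0.0512, 0.062 and 0.0611. Ces1d was at 956 ± 493 and 618 ± 337 CPM, where the spread holds the difference between lines, and its log2 fold change was 0.66 (SE 0.10, adjusted p = 0.00846). The other 5 members were not called by label, with log2 fold changes of 0.29 for Ces1c (adjusted p = 0.124), -0.36 for Ces1e (0.0796), 0.72 for Ces1g (0.325), 0.00 for Ces2a (1) and -0.06 for Ces2e (0.776). None of the 10 had a called interaction of line and label in edgeR, DESeq2 or limma voom. In edgeR 1 had an unadjusted p under 0.05, as did 725 of all 17669 tested genes. The edgeR test called an interaction for 0.0283% of all tested genes, 0.017% higher and 0.0113% lower. Called between lines were 2 members higher and 2 lower within libraries labelled male, beside 0.102% and 0.13% of tested genes and 0.232% in either direction. Within those labelled female 0 members were higher and 2 lower, beside 0.26% and 0.232% of tested genes and 0.492% in either direction. There 7 members had an unadjusted edgeR p under 0.05, as did 2494 of all 17669 tested genes. DESeq2 called 2 members higher, beside 1.31% of its genes, and limma voom called 2 higher, beside 0.413%.

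The remaining 10 Ces genes of the annotation were mostly at the limit of detection. Ces2g, between Ces2e and Ces3a on the chromosome, was at 79.4, 77.4, 71.3 and 60.5 CPM in the hosts of Colo201 and 52.2, 52.6, 48.2 and 38.2 CPM in the hosts of HCT116. The lines did not overlap, and its log2 fold change of 0.60 (SE 0.10, edgeR adjusted p = 0.0191) was called. Leaving out Colo201 2L or 4L, or HCT116 1L or 1R, ended that call, at adjusted p of 0.0571, 0.0574, 0.0652 and 0.0622. Ces1b, next to Ces1c and 91.2% identical to it in coding sequence, was at 226 to 379 CPM in hosts of Colo201 and 290 to 411 CPM in hosts of HCT116 (log2 fold change -0.23, adjusted p = 0.162). By label Ces1b was higher in libraries labelled male (0.53, adjusted p = 0.0118). Ces1a, Ces2b, Ces2d-ps, Ces2h and Ces4a stayed between 0 and 1.97 CPM and were not called, and Ces1h reached 0.0619 CPM. Ces2f and Ces5a had 0 counts in every library, which allows up to 0.178 to 0.203 CPM by library when a fragment is taken as 4 counts (3 fragments, counting error only). Of the 7 tested, 1 was higher and 0 lower between lines, with a median log2 fold change of 0.18.

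**Figure D4:**
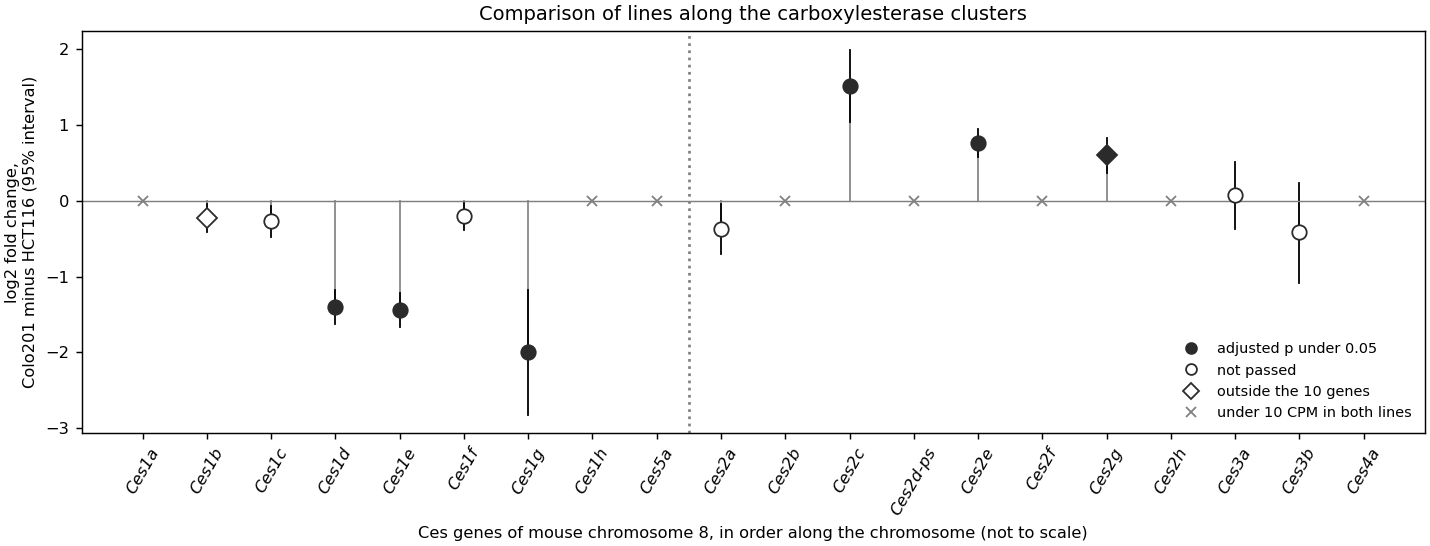
Log2 fold change, Colo201 minus HCT116, with its 95% interval for the 20 Ces genes in chromosomal order; the dotted line parts the minus-strand from the plus-strand genes and crosses mark genes under 10 CPM in both lines, drawn at 0. The called genes left of the line (Ces1d, Ces1e, Ces1g) lie below 0 and those right of it (Ces2c, Ces2e, Ces2g) above 0.

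Along the chromosome, the called genes on the minus strand were all lower in hosts of Colo201 and those on the plus strand all higher. On the minus strand the uncalled member Ces1c lay before Ces1d, and the uncalled member Ces1f lay between Ces1e and Ces1g. On the plus strand the uncalled Ces2a lay before Ces2c, and Ces3a and Ces3b lay after Ces2g. These uncalled plus-strand members did not share a direction, with log2 fold changes of -0.38 for Ces2a, 0.07 for Ces3a and -0.42 for Ces3b. Promoters are shown for the members with the largest fall and the largest rise, as the 300 bases around the start that RefSeq gives for GRCm38.p6, most of them upstream. Ces1g lies at chr8:93337160-93337459 on the minus strand and Ces2c at chr8:104846818-104847117 on the plus strand. The motifs searched on both strands were AGGTCA and AGTTCA, the half-sites of nuclear receptors, TGACNNNGC, the core of the antioxidant response element, and TATAAA, the TATA box. Capitals mark a match.
Ces1g: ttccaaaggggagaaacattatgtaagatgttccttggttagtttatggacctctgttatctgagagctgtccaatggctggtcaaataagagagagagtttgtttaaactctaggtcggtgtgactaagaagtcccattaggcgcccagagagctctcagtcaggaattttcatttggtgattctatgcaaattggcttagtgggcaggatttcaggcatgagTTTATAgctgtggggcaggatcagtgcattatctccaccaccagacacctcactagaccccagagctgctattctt
Ces2c: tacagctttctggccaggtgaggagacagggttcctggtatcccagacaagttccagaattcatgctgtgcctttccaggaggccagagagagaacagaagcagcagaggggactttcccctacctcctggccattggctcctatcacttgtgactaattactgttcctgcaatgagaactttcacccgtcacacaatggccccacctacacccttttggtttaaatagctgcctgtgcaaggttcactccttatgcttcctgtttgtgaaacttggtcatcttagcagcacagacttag

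Ces1g held TATAAA on the opposite strand, with its first base at -26 from the start, and Ces2c held none of the 4 motifs. Among the 7 members with an entry, Ces3b held TATAAA at -30 and Ces2a held AGGTCA at -226, both on the gene's strand, and Ces1c, Ces1e and Ces2e held none. Over 32851 promoters of the same length 16.3% held AGGTCA, 14.0% AGTTCA, 12.4% TGACNNNGC and 13.6% TATAAA. Ces1d, Ces1f and Ces3a had no entry.

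Nuclear receptors and other factors reported to control carboxylesterase genes were read beside them. Of 13 tested, 3 were lower in hosts of Colo201 and 0 higher, with a median log2 fold change of -0.16. Nr1i3, the xenobiotic receptor CAR, was at 231, 349, 119 and 127 CPM in the hosts of Colo201 and 692, 542, 392 and 291 CPM in the hosts of HCT116. The lines overlapped through Colo201 2R and HCT116 3R, and the libraries labelled male were higher within each line, as for Ces1d. Its log2 fold change was -1.28 between lines (SE 0.17, adjusted p = 0.0093) and 1.04 between labels (adjusted p = 0.0125; 0.0504 without HCT116 1L). Without a covariate both calls were lost, at adjusted p of 0.154 and 0.377. Nr1i2, the receptor PXR, was at 72.9 ± 15.1 and 105 ± 21.5 CPM (-0.52, adjusted p = 0.0118, and 0.194 without a covariate). Between labels its log2 fold change was 0.51 (adjusted p = 0.00832, and 0.258 without a covariate). Nr1h4, the bile acid receptor FXR, was at 105 ± 6.19 and 144 ± 7.66 CPM (-0.46, adjusted p = 0.0131, and 0.0553 and 0.0534 without HCT116 1L or 1R). By label 2 of the 13 were higher in libraries labelled male, Nr1i3 and Nr1i2, and 1, Cebpa, was lower (-0.46, adjusted p = 0.0396). The call of Cebpa was lost without most single libraries, at adjusted p of up to 0.133. Nfe2l2, the oxidative stress factor NRF2, was not called, at 89.6 ± 12.2 and 71.5 ± 3.51 CPM (0.32, adjusted p = 0.0814), though DESeq2 called it higher (adjusted p = 0.0379).

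Other ester and lipid hydrolases were mostly not called. Of 23 tested, 3 were lower in hosts of Colo201 and 0 higher, with a median log2 fold change of -0.14. Abhd6, a monoacylglycerol lipase, was at 26.6 ± 4.02 CPM in hosts of Colo201 and 45.7 ± 1.79 CPM in hosts of HCT116 (-0.79, SE 0.11, adjusted p = 0.0103). The phospholipases Pnpla6 (-0.55, adjusted p = 0.0236) and Pnpla8 (-0.56, adjusted p = 0.0388) were the other two. Without single libraries the adjusted p rose to at most 0.0797 for Pnpla6 (call lost without Colo201 2L or 4L, or HCT116 1L, 1R or 3L) and 0.112 for Pnpla8 (call lost without any library but Colo201 4R). Aadac, an arylacetamide deacetylase of the endoplasmic reticulum with roles like those of Ces1d, did not pass between lines (-0.00, adjusted p = 0.996) and was lower in libraries labelled male (-0.51, adjusted p = 0.0178; 0.0513 to 0.07 without Colo201 2R or 4R, or HCT116 1R or 3R). By label 3 of the 23 were higher in libraries labelled male, Acot4 (1.61, adjusted p = 0.0101), Pnpla3 (2.65, adjusted p = 0.0339) and Bche (0.52, adjusted p = 0.0448), and 1, Aadac, was lower. The call of Pnpla3 was lost without Colo201 2R or 4L, or HCT116 1L, 1R or 3L (edgeR adjusted p 0.0696 to 0.108). That of Bche was lost when any library but Colo201 2L was left out (0.0637 to 0.138). Of 12 endoplasmic reticulum partners and lipoprotein assembly genes, Cideb was higher in hosts of Colo201, at 216 ± 20.5 against 172 ± 10.4 CPM (0.33, adjusted p = 0.0459), 0 were lower and the median was 0.08; leaving out any 1 library ended the call of Cideb (adjusted p 0.0603 to 0.15).

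Likeness was measured by Pearson's r of log2 CPM over the 8 libraries, against 7778 genes of at least 10 CPM on average, as a description over points that differ in both line and sex label. Most like Ces1c were the complement gene C4b (r = 0.981), the export receptor Xpo5 (0.977) and Capn10 (0.957). Most like Ces2c were the kinase Sgk2 (0.988), Def8 (0.987) and the elastase Cela1 (0.985). Most like Ces1g were Gpd1l (0.970) and the chemokine Cxcl12 (0.970).

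Markers of other cells were read beside the differences between lines as well, and their part in them was not tested. Exocrine pancreas markers (Cela1, Prss1, Cpa1, Amy2b) summed to 24.7 to 51.1 CPM in hosts of Colo201 and 8.98 to 28.2 CPM in hosts of HCT116. Prss1 and Cpa1 were at 0 in all libraries and Amy2b reached at most 0.0891 CPM, so the sum was nearly all Cela1. Cela1 passed the edgeR test (log2 fold change 1.23, adjusted p = 0.0158, and 0.0564 and 0.0582 without HCT116 1R or 3L). The 4 kidney tubule markers summed to at most 0.134 CPM, with Kap and Slc22a6 at 0. Summed cholangiocyte markers were at 27.8 to 38.7 CPM in 7 libraries and 63.0 CPM in Colo201 4R. Their list did not move as a whole in Colo201 4R. Krt19 (25.9 CPM, others up to 2.17), Epcam (12, others up to 1.42) and Cftr (0.551, others up to 0.34) were highest there. Spp1 was at its lowest there (21.4 CPM), and Sox9 (2.3) and Krt7 (0.794) lay within the range of the other libraries. Colo201 4R was also lowest in macrophage markers (91.6 CPM, others 165 to 262) and endothelial markers (111 CPM, others 131 to 211). Stellate cell markers were at 225 to 229 CPM in hosts of Colo201 and 163 to 229 CPM in hosts of HCT116, and of these Reln passed (0.89, adjusted p = 0.0184; 0.055 and 0.0579 without Colo201 4L or HCT116 1L). Of the hepatocyte markers Trf (0.51, adjusted p = 0.0216) and Apoa1 (0.47, adjusted p = 0.0167) were higher in hosts of Colo201. The call of Trf was lost without Colo201 2L or 4L or any 1 library of HCT116 (adjusted p 0.0537 to 0.0723). That of Apoa1 was lost without Colo201 4L, HCT116 1R or 3L (0.0522 to 0.0582). Without Colo201 4R the calls between lines were 2 members higher and 2 lower, beside 1.42% and 1.5% of tested genes. The lost call was that of Ces1g.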

How the data were processed

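RNALater-preserved liver was homogenised in TRIzol for total RNA, and Illumina's stranded TruSeq mRNA chemistry gave the libraries, per the labels' protocols. The submitters' processing notes name HISAT2, StringTie and GRCm38 (mm10), with no version, gene annotation or strand option. The authors deposited estimated counts per gene, all whole numbers, of which 44.7% of values from 1 to 16 are multiples of 4. They also deposited FPKM, used here for levels per length and in alternatives. A symbol was matched by Ensembl identifier for 55141 of 55401 genes.

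Counts were scaled by TMM, filtered by filterByExpr and tested with edgeR 4.0.16 in R 4.3.3 (two-sided quasi-likelihood tests, 5 residual degrees of freedom; 4 in the fit with a mean for each line and label, which gave within-label contrasts and the interaction). DESeq2 1.42.0 and limma 3.58.1 served as alternatives. The 4 pairs of libraries that share a title number had a chi-square of 48.6 to 98.1 per gene, and the 24 other pairs 122 to 382. None was thus a copy of another, but L and R of each title number were more alike than any other pair. Other pairs differ in line, label or both, so the check does not tell whether L and R are separate animals. The members and gene lists were chosen with earlier results of these data known. Named were all Ces genes, up to 5 list members passing between lines, 5 genes whatever their result, and the 3 genes most like 3 members, of which 1 is not reported here. Sex-linked genes and cell markers served as checks.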

Additional observations from a re-analysis of the deposited data

How the results depend on the processing

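Over 22 alternatives and both comparisons, 398 of 440 values of single members kept direction and side of the threshold, 25 lost a call, 6 gained one and 11 changed sign. The sign changes were of uncalled values near 0. Ces2a by sex label was -0.00 with RLE scaling, without a low-count filter, with counts divided by 4, without HCT116 1L and in DESeq2, -0.02 without a covariate, -0.08 without Colo201 2R and -0.14 without Colo201 4R, within -0.14 to 0.11 as single libraries were left out. Ces3a between lines was -0.07 without a covariate, -0.17 without Colo201 2L and -0.06 without HCT116 1L, within -0.17 to 0.17. Outside the members, Aadac between lines was 0.01 with upper-quartile scaling, 0.00 without a low-count filter and in limma voom, 0.02 without a covariate and -0.07 to 0.03 with single libraries left out, and Gusb was -0.00 without Colo201 2L (up to 0.16).

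Ces1d, Ces1e and Ces2e kept their calls between lines in all alternatives but 1, the sum of L and R of each title number into 4 libraries. There 0 members were called in either direction and in either comparison, and over all genes 0 were higher and 3 lower between lines, against 439 and 406, and 74 higher and 67 lower between labels, against 346 and 364. The adjusted p was 0.0838 for Ces1d and Ces1e, 0.115 for Ces2e, 0.139 for Ces2c and 0.102 for Ces1g. At a threshold of 0.01, 1 member was higher and 2 lower in hosts of Colo201, beside 0.232% and 0.289% of tested genes. By label 1 was higher and 1 lower in libraries labelled male, beside 0.56% and 0.713%. Without a covariate 1 was higher and 2 lower in hosts of Colo201, beside 0.498% and 0.379% of tested genes. Under the same setting 0 were higher and 1 lower in libraries labelled male, beside 0.9% and 1.02%. DESeq2 called 5 lower in libraries labelled male (2.83% of 25696 genes), and DESeq2 and limma voom each called 4 between lines within libraries labelled female (2.69% and 0.804% of genes). With each library left out in turn, 2 to 4 members were lower in libraries labelled male, beside 0.913 to 1.73% of tested genes. In hosts of Colo201 2 to 3 were lower, beside 0.47 to 1.5%. With a library of the other label left out, 3 to 4 were called within libraries labelled male, beside 0.111 to 0.239%. Within those labelled female it was 2 to 3, beside 0.1 to 0.418%. Leaving out a library of the label itself leaves 1 library in an arm of that contrast, assumed to vary like the other groups. Those counts are not given. Over all genes between lines, there were 41 higher and 51 lower at a threshold of 0.01, 88 and 67 without a covariate, 86 and 89 without HCT116 3L, and 883 and 920 in DESeq2. The cause was not tested. Depth limits what can be said of the Ces genes at or near 0 counts. No paired analysis was possible because the lines share no replicate numbers.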
